A study of Mus musculus with 4 samples.

Results

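Bfar encodes a RING ubiquitin ligase of the endoplasmic reticulum (ER) membrane, and its transcript was followed here together with those of 6 other ER-membrane ligases, Syvn1, Rnf5, Rnf185, Rnf139, Rnf121 and Trim13. The genes were chosen by name as Bfar and RING ligases known to sit in that membrane, with earlier results of these data known. All 7 were among the 17478 genes listed in at least 1 of the 4 libraries. The question was whether the RNA of any of these ligases shifts in T cells that have lost Bfar. RNA was sequenced from mouse CD4+ T cells on C57BL/6 background, 2 libraries from wild-type mice and 2 from BFAR-/- mice, in which the deletion is restricted to T cells. All mice were 6 to 8 weeks old. Naive cells (CD44lo CD62Lhi) from spleen and lymph nodes were sorted, and every culture, wild type and knockout alike, received anti-CD3 and anti-CD28 and was kept for 3 days under the Th9 condition, which steers helper T cells towards interleukin 9 secretion. Which Cre driver was used and which exons it removes is not given in the sources used here. Nor do the labels say that the libraries of a group come from separate mice, so a p-value here reflects the spread between these 4 libraries alone, which may be technical.

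Proteins that fail to fold in the ER are pulled back through the membrane, tagged with ubiquitin and destroyed by the proteasome, a route called ER-associated degradation (ERAD). A ligase supplies the last step of the tagging: its RING domain holds zinc ions through 8 cysteine or histidine residues and docks the ubiquitin-conjugating enzyme (E2) that carries ubiquitin. Ligases of this membrane also set the levels of particular healthy proteins, including sterol enzymes, amino acid carriers and signalling molecules, and BFAR was described as a regulator of apoptosis that binds members of the BCL-2 family.

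The RING is what the 7 genes share, so the stretch that encodes it is shown for 6 of them, 5′ to 3′ on the coding strand, with the 8 zinc-binding codons (cysteine or histidine) in capitals. The stretches were found in the GENCODE M21 transcripts of GRCm38 by the spacing of those 8 codons.
Bfar: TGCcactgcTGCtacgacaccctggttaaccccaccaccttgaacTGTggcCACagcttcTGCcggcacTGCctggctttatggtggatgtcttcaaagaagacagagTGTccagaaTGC
Syvn1: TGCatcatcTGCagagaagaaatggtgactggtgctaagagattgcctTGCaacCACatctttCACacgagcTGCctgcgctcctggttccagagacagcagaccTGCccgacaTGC
Rnf5: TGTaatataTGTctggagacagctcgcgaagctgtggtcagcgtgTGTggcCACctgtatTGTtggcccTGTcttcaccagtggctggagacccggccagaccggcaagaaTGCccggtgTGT
Rnf185: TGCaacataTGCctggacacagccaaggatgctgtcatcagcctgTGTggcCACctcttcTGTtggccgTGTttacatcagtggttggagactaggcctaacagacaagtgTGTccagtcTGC
Rnf121: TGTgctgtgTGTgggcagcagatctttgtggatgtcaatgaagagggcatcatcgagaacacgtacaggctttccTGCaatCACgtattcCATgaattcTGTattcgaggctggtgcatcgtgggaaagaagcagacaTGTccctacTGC
Trim13: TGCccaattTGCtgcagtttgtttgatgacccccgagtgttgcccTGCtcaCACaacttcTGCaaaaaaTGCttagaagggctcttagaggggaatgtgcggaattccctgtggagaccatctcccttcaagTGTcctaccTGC
In Bfar the stretch comprises codons 34 to 73 of 450 and lies wholly within exon 2 of 8, at chr16:13685235-13685354 on the plus strand. It is likewise close to the start of the coding sequence in Trim13 (codons 10 to 57 of 407, chr14:61604563-61604706, plus strand) and Rnf5 (codons 27 to 67 of 180, spliced from exons 1 to 3 within chr17:34602156-34603395, minus strand). In Rnf185 it comprises codons 75 to 115 of 228, spliced from exons 3 to 5 within chr11:3426637-3432461 on the minus strand. It lies in the middle or the last part of the coding sequence in Syvn1 (codons 291 to 329 of 612, chr19:6050371-6050567, plus strand) and Rnf121 (codons 226 to 275 of 327, chr7:102023350-102024098, minus strand). The Rnf5 and Rnf185 stretches have the same length and were identical at 91 of 123 bases (74.0%).

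Bfar RNA was lower in both knockout libraries and was not absent from them. Its level was 36.4 and 32.9 CPM (counts scaled to library size, with TMM factors) in the wild-type libraries and 8.44 and 7.79 CPM in the knockout libraries. The groups were far apart relative to their spread, with means of 34.7 ± 2.47 and 8.12 ± 0.463 CPM (SD, n = 2 each), so that 23.4% of the wild-type level remained. The log2 fold change was -2.09 ± 0.09 (SE; 95% interval -2.29 to -1.89; edgeR quasi-likelihood test, adjusted p = 5.38e-10). Per length, Bfar fell from 12.06 and 11.22 FPKM (a level scaled for transcript length and depth) to 2.88 and 2.57 FPKM. Among the 9892 tested genes that averaged 5 CPM or more, only 4 fell further than Bfar. The remaining signal rests on 163 and 148 expected counts, well above the 3 counts that a value of 0 would allow. In bulk RNA, fewer cells that carry an intact Bfar and less Bfar RNA per cell cannot be told apart. Which part of the transcript the remaining counts cover was not tested.

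**Figure D1:**
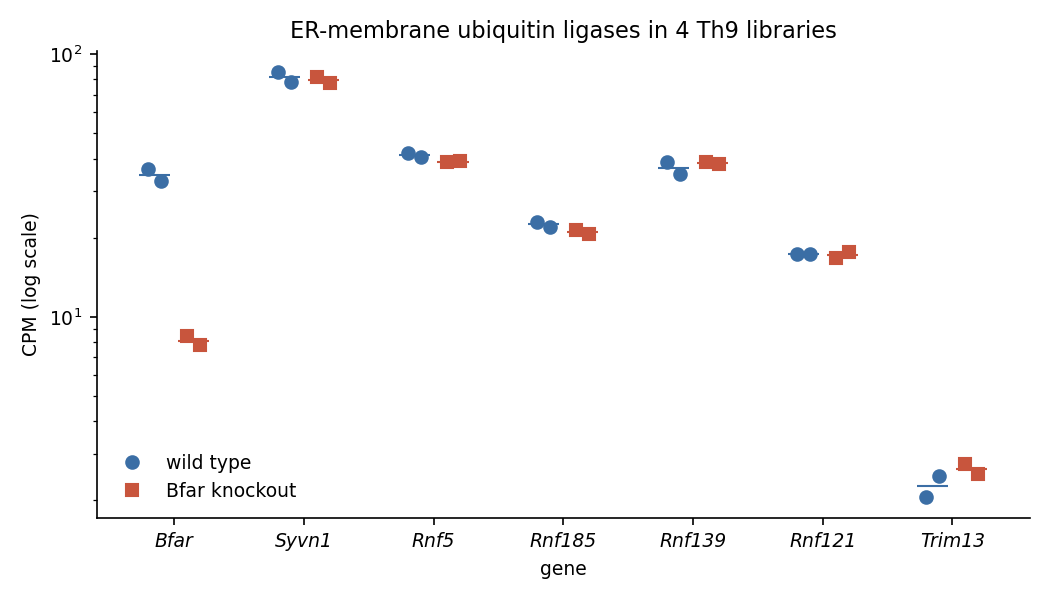
Level of the 7 ER-membrane ligases in each library, in CPM on a log axis; blue circles are wild-type libraries, red squares knockout libraries and short lines the group means. Bfar separates (36.4 and 32.9 against 8.44 and 7.79 CPM), while the wild-type and knockout points of each of the other 6 genes lie close together.

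The gene model gives 1 landmark inside the locus. Bfar spans chr16:13671858-13703612 on the plus strand of GRCm38. In its transcript Bfar-201 exon 1 (chr16:13671858-13672078) is noncoding and exon 2 (chr16:13685062-13685398) holds the start codon and the RING. A further transcript, listed as the separate gene 3110001I22Rik and named after its values were seen, starts in the same first exon and ends in an exon inside the first Bfar intron, at chr16:13676834-13678385. Both are read from the same promoter region, so the 250 bases before the Bfar start (RefSeq, GRCm38.p6, chr16:13671608-13671857, plus strand) are shown, all in lower case.
Bfar promoter: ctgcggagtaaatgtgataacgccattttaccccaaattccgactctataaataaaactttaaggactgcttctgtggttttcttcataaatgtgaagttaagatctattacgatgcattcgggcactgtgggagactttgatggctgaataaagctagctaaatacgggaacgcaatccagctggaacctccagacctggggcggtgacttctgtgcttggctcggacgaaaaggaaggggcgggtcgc
3110001I22Rik had 5.65 and 5.36 CPM in the wild-type libraries and 5.91 and 5.0 CPM in the knockout libraries. The groups overlapped, and the log2 fold change was -0.01 ± 0.15 (SE; 95% interval -0.33 to 0.30; edgeR, adjusted p = 0.96). Bfar was 6.45 and 6.14 times as high in CPM as the nested transcript in wild-type cells and 1.43 and 1.56 times as high in knockout cells. The assignment is partly uncertain, since 7.16% of the 31-base words of 3110001I22Rik also occur in Bfar. With both rows summed, the libraries had 42.1, 38.3, 14.4 and 12.8 CPM, and the fall was -1.57 ± 0.08 log2 units (SE; edgeR, adjusted p = 4.86e-09).

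**Figure D2:**
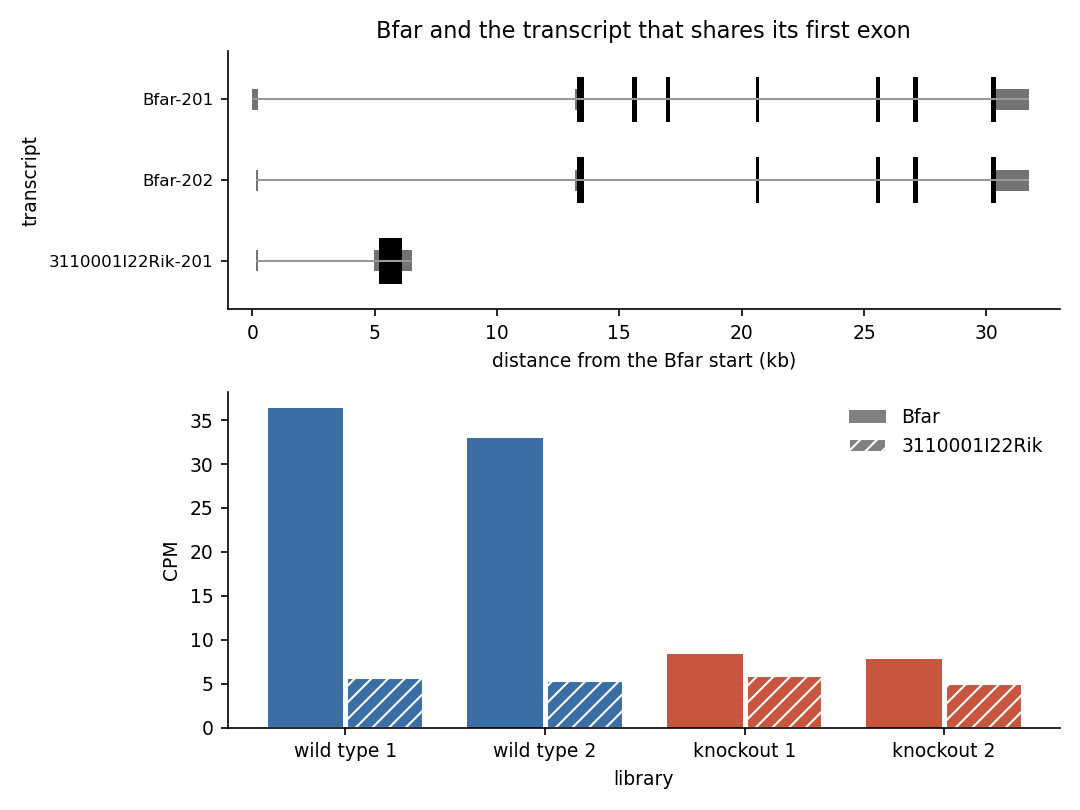
Exons of Bfar and 3110001I22Rik drawn to scale by distance from the Bfar start, with coding parts as taller boxes, above bars of the CPM of Bfar (plain) and 3110001I22Rik (hatched) in each library. Bfar fell from 36.4 and 32.9 to 8.44 and 7.79 CPM, and 3110001I22Rik, which ends in the first Bfar intron, lay between 5.0 and 5.91 CPM in all 4 libraries.

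The listed length of Bfar, which RSEM weights by the share of each transcript, did not separate the genotypes. It was 3010 and 2928 bases in the wild-type libraries and 2918 and 3010 bases in the knockout libraries. A second GENCODE transcript, Bfar-202, lacks exons 3 and 4 of Bfar-201. Its first exon (59 against 221 bases) and last exon (1538 against 1548 bases) are also shorter, and in all it is 547 bases shorter. The longest listed length, 3010 bases, is not that of Bfar-201 (3003 bases), so the forms behind the listed lengths may differ from these. If they are a long and a short form 547 bases apart, the short one made up 0% and 15% in wild type and 16.9% and 0% in knockout. On that reading each genotype had 1 library with and 1 without it.

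None of the 6 other ligases passed the test. The count was 0 of 6 by edgeR, which called 26.8% of all 12677 tested genes (13.6% higher and 13.2% lower in the knockout). At an unadjusted edgeR p under 0.05 it was 0 as well, against 4784 of the 12677 genes. DESeq2 and limma-voom also called 0 of the 6. Over all genes DESeq2 called fewer than edgeR, as given below, and the share for limma-voom is not given here. The median log2 fold change of the 6 was -0.025, beside -0.002 over all tested genes. Their groups did not overlap for 3 of the 6, against 63.5% of all tested genes. These values limit the size of any shift rather than show that there was none, and the limit differs between the genes.

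Syvn1 encodes HRD1, the best known ERAD ligase, which forms the core of the channel through which misfolded proteins leave the ER. It had 85.4 and 78.4 CPM in wild type and 82.1 and 77.8 CPM in knockout. The groups overlapped, with a log2 fold change of -0.04 ± 0.05 (SE; 95% interval -0.15 to 0.08; edgeR, adjusted p = 0.664). As a ratio the interval runs from 0.904-fold to 1.05-fold, the narrowest of the set.

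Rnf5 and Rnf185 encode closely related small ligases with a tail-anchored membrane end, which share ERAD clients. Rnf5 had 42.1 and 40.7 CPM in wild type and 38.7 and 39.2 CPM in knockout. Rnf185 had 23.0 and 22 CPM in wild type and 21.4 and 20.7 CPM in knockout. In both genes the knockout libraries lay below the wild-type libraries without overlap, by a small margin. The log2 fold change was -0.09 ± 0.06 for Rnf5 (SE; 95% interval -0.21 to 0.04; edgeR, adjusted p = 0.299). It was -0.09 ± 0.08 for Rnf185 (SE; 95% interval -0.26 to 0.07; edgeR, adjusted p = 0.412). Of the 31-base words of Rnf5, 20.2% also occur, on the opposite strand, in the annotated gene Gm20463, and 16.8% occur on the same strand in Gm18101. Neither of those genes is listed in the tables, so the share of their reads within the Rnf5 row is uncertain.

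Rnf139 encodes TRC8, a ligase with a sterol-sensing domain that takes part in the control of cholesterol synthesis. It had 38.7 and 35.0 CPM in wild type and 38.7 and 38 CPM in knockout, and the groups overlapped. Its log2 fold change was 0.06 ± 0.07 (SE; 95% interval -0.08 to 0.20; edgeR, adjusted p = 0.56). Tatdn1 overlaps Rnf139 on the opposite strand and shares 21.9% of the Rnf139 words. Since the strand setting is not given in the sources used here, reads of the pair may be mixed. Tatdn1 itself had 6.61 and 6.47 CPM in wild type and 9.38 and 7.32 CPM in knockout, a log2 difference of 0.35 ± 0.14 that missed the threshold (SE; edgeR, adjusted p = 0.0756).

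Rnf121 encodes a multi-pass ligase of the ER and Golgi, and it had the smallest difference of the set. Its level was 17.4 and 17.3 CPM in wild type and 16.7 and 17.6 CPM in knockout. The log2 fold change was -0.01 ± 0.09 (SE; 95% interval -0.20 to 0.17; edgeR, adjusted p = 0.926). Trim13 encodes an ER-anchored member of the TRIM family linked to ERAD and to autophagy. It was the scarcest, with 2.07 and 2.48 CPM in wild type and 2.75 and 2.53 CPM in knockout, or 41, 49, 53 and 48 counts. The knockout libraries lay just above the wild-type libraries, with a log2 fold change of 0.21 ± 0.22 (SE; 95% interval -0.25 to 0.67; edgeR, adjusted p = 0.509). At this depth the interval spans 0.843-fold to 1.59-fold, so a moderate change of Trim13 would not have been detectable. The annotated gene Gm9359, not listed in the tables, shares 28.7% of the Trim13 words.

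Per length, the ligases covered a wide range in wild-type cells. Rnf5 was highest with 38.9 and 37.6 FPKM, followed by Syvn1 with 26.4 and 24 FPKM. Bfar (12.06 and 11.22 FPKM) and Rnf121 (11.70 and 11.62 FPKM) came next, and their libraries overlapped, so they were not ordered. Below them were Rnf139 with 8.85 and 7.98 FPKM, Rnf185 with 6.88 and 6.67 FPKM and Trim13 with 1.32 and 1.58 FPKM, each apart from its neighbour. In the knockout libraries the other 6 kept this order, and Bfar moved down to a place between Rnf185 (6.43 and 6.05 FPKM) and Trim13 (1.75 and 1.61 FPKM). The FPKM of all 7 added up to 106.1 and 100.7 in wild type and 92.0 and 90.7 in knockout. Without Bfar the sums were 94.1 and 89.5 in wild type and 89.1 and 88.1 in knockout. Bfar thus made up 11.4% and 11.1% of the summed level in wild type and 3.13% and 2.84% in knockout. Syvn1 and Rnf5 together went from 61.5% and 61.2% to 66.2% in both knockout libraries, which follows from the smaller sum. Their own mean FPKM did not rise. It went from 25.2 to 24.5 for Syvn1 and from 38.3 to 35.9 for Rnf5.

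Listed lengths of the other members varied only for Syvn1 and Rnf185. Syvn1 had 3228 and 3249 bases in wild type and 3240 and 3228 bases in knockout, which overlapped. Rnf185 had 3320 and 3285 bases in wild type and 3310 and 3389 bases in knockout, which overlapped too. Among the 3978 genes whose listed length varied, the groups did not overlap for 33.1%, and no member was among those. Rnf5, Rnf139, Rnf121 and Trim13 had the same length in every library.

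Further ligases of the ER membrane behaved unlike one another. Of 15 on the list, 12 were listed in the tables and 11 were tested, of which 2 rose and 1 fell (27.3%, against 26.8% of all tested genes); their median log2 fold change was 0.02. The largest difference was in March6, which encodes the counterpart of yeast Doa10 and degrades squalene monooxygenase, an enzyme of cholesterol synthesis. March6 (chr15:31455899-31531082) had 124 and 120.5 CPM in wild type and 64.4 and 61.5 CPM in knockout. Its groups were far apart, with means of 122 ± 2.25 and 63.0 ± 2.03 CPM (SD, n = 2 each). The log2 fold change was -0.96 ± 0.05 (SE; 95% interval -1.05 to -0.86; edgeR, adjusted p = 1.16e-09), and after Bfar it was the largest fall of any ligase examined. March6 had the same listed length, 6236 bases, in every library and lies on another chromosome than Bfar.

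Rnf145 and Rnf19a were the ligases that rose. Rnf145, whose product acts on the cholesterol enzyme HMG-CoA reductase, had 156.7 and 164 CPM in wild type and 188 and 194 CPM in knockout. The groups did not overlap, and the log2 fold change was 0.25 ± 0.04 (SE; edgeR, adjusted p = 0.000383). Rnf19a, which encodes a ligase of the RING-between-RING class, had 139 and 155 CPM in wild type and 171 and 176 CPM in knockout, a log2 difference of 0.24 ± 0.05 (SE; edgeR, adjusted p = 0.00195). The call of Rnf19a was lost when knockout replicate 2 was left out (edgeR, adjusted p = 0.0844). The nearest miss was Rnf170, a ligase that acts on inositol trisphosphate receptors, with 19.1 and 21.9 CPM in wild type and 17.9 and 16.7 CPM in knockout (log2 fold change -0.24; edgeR, adjusted p = 0.0625).

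**Figure D3:**
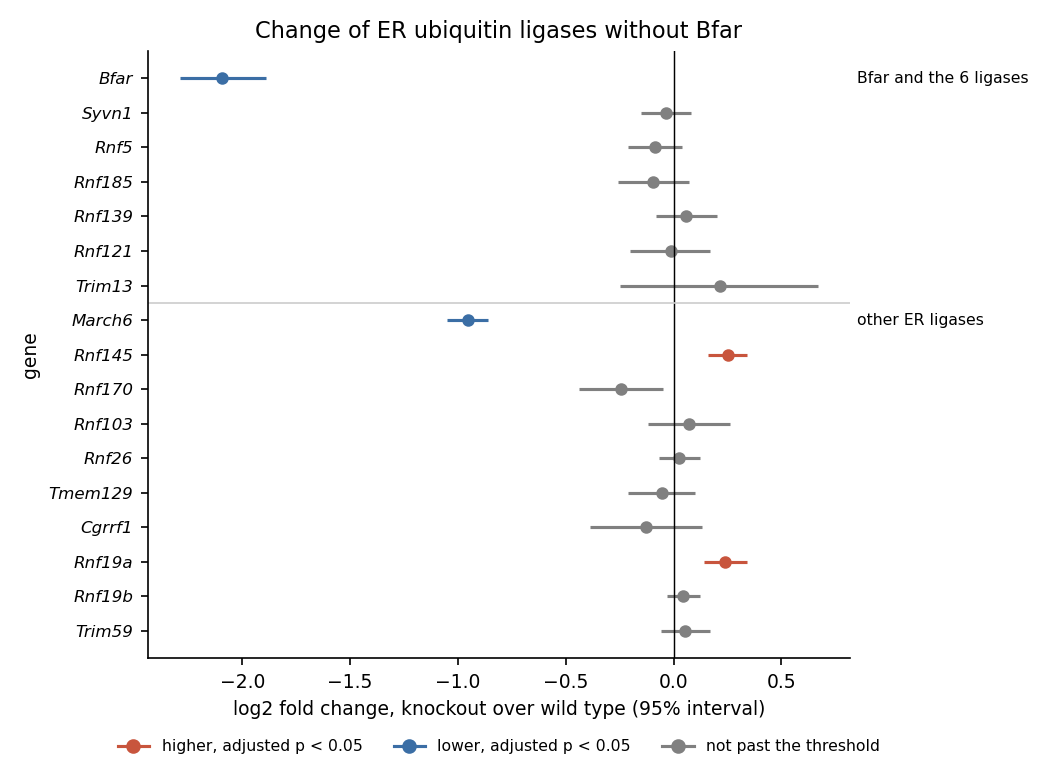
Log2 fold change (knockout against wild type) of Bfar and the 6 ligases and of 10 of the 11 other tested ER-membrane ligases, with 95% intervals from edgeR; red (higher) and blue (lower) genes passed an adjusted p of 0.05, grey ones did not. Bfar (-2.09) and March6 (-0.96) lie to the left, Rnf145 (0.25) and Rnf19a (0.24) to the right, and the intervals of the 6 other members include 0.

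The genes that work with these ligases in ERAD were called about as often as other genes. Of 39 partners, 4 rose and 8 fell (30.8%, against 26.8% of all tested genes), with a median log2 fold change of -0.00. By role, a grouping made after the values were seen, the lectins and mannosidases that pick out misfolded glycoproteins held 3 of the rises among 5 genes (Os9, Edem1 and Edem2) and no fall. The E2 enzymes held 3 falls among 5 genes (Ube2j2, Ube2g2 and Ube2k). The channel and its adaptors held 2 falls among 15 genes (Herpud1 and Aup1), and the 8 genes of the p97 complex, which extracts tagged proteins, and its anchors had log2 fold changes between -0.10 and 0.04. Shuttle factors and deglycosylation held 1 rise (Ngly1) and 3 falls, Rad23b and Ubqln4 among them, in 6 genes. Os9, Ube2g2 and Aup1 passed by a small margin (edgeR, adjusted p of 0.0278, 0.0429 and 0.0213). DESeq2 called none of them, so the counts by role depend on the tool.

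Edem1 helps to trim mannose from misfolded glycoproteins before they reach HRD1. It had 191.8 and 202.1 CPM in wild type and 239 and 251 CPM in knockout, a rise of 0.32 ± 0.04 log2 units (SE; edgeR, adjusted p = 6.47e-05). Edem2, which starts the trimming, had 58.7 and 56.1 CPM in wild type and 68.1 and 72.4 CPM in knockout, a rise of 0.29 ± 0.05 (SE; edgeR, adjusted p = 0.00072). Among the E2 enzymes, Ube2j2 is anchored in the ER membrane, and Ube2k builds ubiquitin chains that mark proteins for the proteasome. Ube2j2, which shares 12.4% of its words with Gm5801, had 70.4 and 66.9 CPM in wild type and 55.2 and 57.9 CPM in knockout, a fall of -0.28 ± 0.05 (SE; edgeR, adjusted p = 0.000976). Ube2k had 106 and 107 CPM in wild type and 90.1 and 87.5 CPM in knockout, a fall of -0.27 ± 0.04 (SE; edgeR, adjusted p = 0.000323). The CPM of the 2 groups did not overlap in any of these 4 genes, as for 63.5% of all tested genes. The 4 genes were named for their small adjusted p, so this separation adds no further support.

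Herpud1, an adaptor of the HRD1 channel, had 119.5 and 114 CPM in wild type and 104 and 96.9 CPM in knockout. Its log2 fold change was -0.22 ± 0.05 (SE; edgeR, adjusted p = 0.0028), with an edgeR adjusted p of 0.0846 without knockout replicate 2. Sel1l, the partner that stabilises HRD1, had 109 and 109 CPM in wild type and 100.5 and 102 CPM in knockout. The knockout libraries of Sel1l lay lower without overlap, but the difference of -0.11 ± 0.04 log2 units missed the threshold (SE; edgeR, adjusted p = 0.072). Ubqln4 (-0.16) and Rad23b (-0.14), which ferry tagged proteins to the proteasome, and Ngly1 (0.30), which strips their glycans, passed with edgeR adjusted p of 0.00887, 0.0163 and 0.0129. Each lost its call when knockout replicate 1 or knockout replicate 2 was left out, as it did for Ubqln4 and Rad23b when wild type replicate 1 was dropped and for Ngly1 when wild type replicate 2 was. Across the 39 partners, leaving out 1 library at a time left 4 and 5 calls when a knockout library (replicate 2 and replicate 1) was dropped, and 6 and 7 when a wild-type library (replicate 1 and replicate 2) was.

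Among the members with a promoter entry, only Syvn1 held an exact match to a known switch of the unfolded protein response. That response is the program that raises ER chaperones when misfolded proteins pile up. The ER stress response element (ERSE) was searched as CCAAT and CCACG with 9 free bases between them, and the unfolded protein response element (UPRE) as TGACGTGG, both on either strand, in RefSeq windows of 300 bases with 250 before each start; the reverse of the last letters of the first can overlap the second. Promoters were matched for 5 of the 7 members, and Rnf5 and Rnf139 had no entry to search. Of those 5, 1 held the first motif (Syvn1) and 0 the second, whereas 0.119% and 0.676% of all 32851 promoters held them. The site of Syvn1 is shown beside 3 chaperone genes that hold it in the same direction, with the fixed letters in capitals.
Syvn1 (chr19:6046527-6046555): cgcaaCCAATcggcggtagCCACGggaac
Hspa5 (chr2:34772020-34772048): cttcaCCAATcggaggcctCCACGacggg
Dnajc3 (chr14:118937822-118937850): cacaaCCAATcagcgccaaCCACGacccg
Pdia6 (chr12:17266486-17266514): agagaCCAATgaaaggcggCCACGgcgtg
All 4 are on the plus strand of GRCm38.p6, and the match begins 44 bases before the start in Syvn1 and 65 bases before it in Hspa5. Of the 15 unfolded protein response genes with a promoter entry, 6 held the element, as did Derl3 among 31 ERAD partners.

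Of the 6 unfolded protein response genes that share the Syvn1 motif, 2 fell (Hspa5 and Dnajc3) and 4 were not called. Of all 18 genes of that response, 1 rose and 3 fell (22.2%, against 26.8% of all tested genes), with a median log2 fold change of -0.02. Hspa5, which encodes the chief ER chaperone BiP, had 543 CPM in both wild-type libraries and 486 and 482 CPM in knockout. Its fall was small but larger than the spread, -0.17 ± 0.03 log2 units (SE; edgeR, adjusted p = 0.00231). Dnajc3, a co-chaperone of BiP, had 84.0 and 82.1 CPM in wild type and 72.0 and 72.3 CPM in knockout, a fall of -0.20 ± 0.05 (SE; edgeR, adjusted p = 0.00374). Sdf2l1, another BiP cofactor, went from 44.1 and 42.8 CPM to 33.3 and 35.9 CPM, a fall of -0.33 ± 0.06 (SE; edgeR, adjusted p = 0.0011). The rise was in Ern1, which encodes the stress sensor IRE1, with 20.7 and 19.8 CPM in wild type and 26.9 and 28.2 CPM in knockout (0.44 ± 0.08 SE; edgeR, adjusted p = 0.000542). The other motif holders were not called by edgeR, with log2 fold changes of 0.04 for Hsp90b1 (adjusted p = 0.4), 0.02 for Pdia6 (adjusted p = 0.788), -0.14 for Creld2 (adjusted p = 0.0984) and -0.01 for Calr (adjusted p = 0.874). Xbp1, whose product is the transcription factor activated by IRE1, differed by 0.08 log2 units (edgeR, adjusted p = 0.171).

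**Figure D4:**
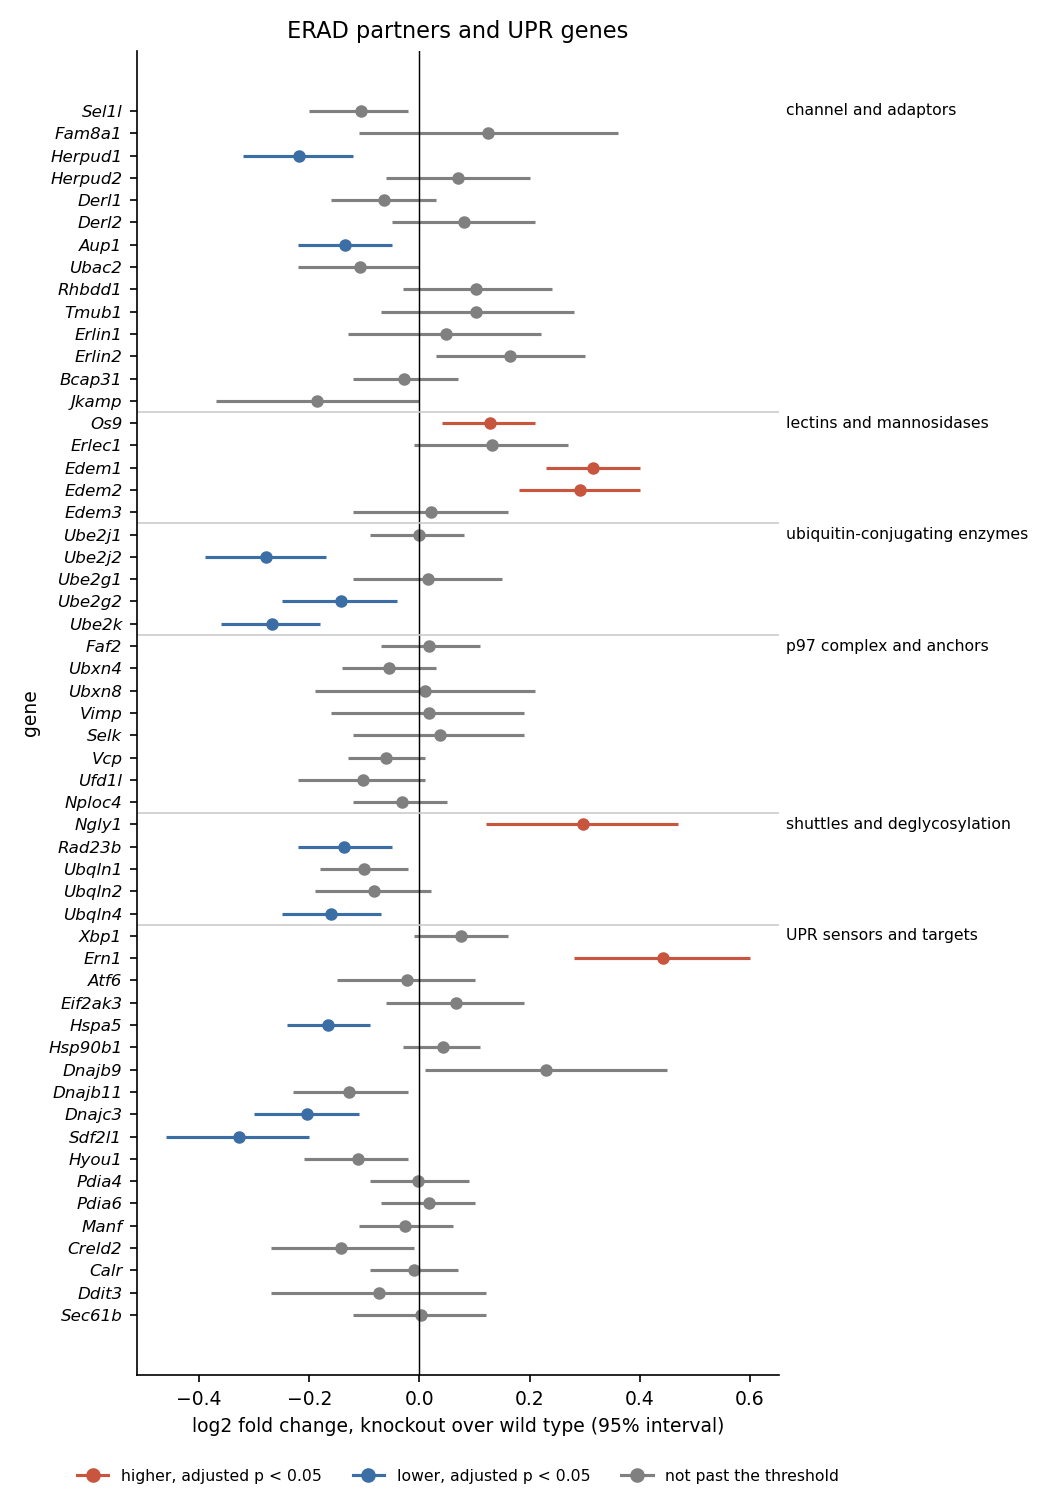
Log2 fold change (knockout against wild type) of the ERAD partner genes by role and of the unfolded protein response (UPR) genes, each point 1 gene with its 95% interval from edgeR; red (higher) and blue (lower) genes passed an adjusted p of 0.05, and Derl3, with under 1 CPM in every library, is left out, as is 1 further gene. Among ERAD partners Edem1 (0.32), Ngly1 (0.30) and Edem2 (0.29) are the called genes farthest to the right and Ube2j2 (-0.28) and Ube2k (-0.27) those farthest to the left; among UPR genes these are Ern1 (0.44) and Sdf2l1 (-0.33).

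Genes reported to be bound or degraded by these ligases were listed next. Of 21, 3 rose and 5 fell (38.1%, against 26.8% of all tested genes), with a median log2 fold change of -0.01. A ligase acts on proteins, so RNA levels do not measure its activity. RNF5 is known to degrade the glutamine carriers encoded by Slc38a2 and Slc1a5. Slc38a2 had 266 and 259 CPM in wild type and 208 and 199 CPM in knockout, a fall of -0.37 ± 0.04 log2 units (SE; edgeR, adjusted p = 8.11e-06). Slc1a5 had 686 and 665 CPM in wild type and 574 and 549 CPM in knockout, a fall of -0.27 ± 0.04 (SE; edgeR, adjusted p = 9.14e-05). In both carriers the knockout libraries lay below the wild-type libraries, and the groups did not overlap for 63.5% of all tested genes.

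Bcl2 encodes the survival protein to whose family BFAR binds. It had 287 and 285 CPM in wild type and 358 and 364 CPM in knockout, a rise of 0.34 ± 0.04 log2 units (SE; edgeR, adjusted p = 8.47e-06). Cdkn1b encodes p27, a brake on the cell cycle that HRD1 degrades in T cells. It had 69.0 and 69.2 CPM in wild type and 86.6 and 88.5 CPM in knockout, a rise of 0.34 ± 0.05 (SE; edgeR, adjusted p = 6.43e-05). Sqstm1 also rose, and Bcl2l1, Trp53 and Tmem173 fell. Tgfbr1, a receptor chain for TGF-beta, a cytokine of Th9 culture, had 221 and 227 CPM in wild type and 229 and 213 CPM in knockout. Its groups overlapped, with a log2 fold change of -0.02 ± 0.04 (SE; 95% interval -0.11 to 0.07; edgeR, adjusted p = 0.812). Tmbim6 encodes BAX inhibitor 1, an ER membrane protein that BFAR binds. It had 381 and 371 CPM in wild type and 391 and 398 CPM in knockout, and its difference of 0.07 ± 0.04 log2 units was not called (SE; 95% interval -0.01 to 0.15; edgeR, adjusted p = 0.181).

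The neighbours of Bfar on chromosome 16 were checked as bystanders of the targeted allele. Of 45 genes within 1 Mb, 17 were listed and 13 tested, and 1 rose and 1 fell (15.4%, against 26.8% of all tested genes). Parn, the measured neighbour upstream, encodes a ribonuclease that shortens poly(A) tails. It had 49.3 and 51.9 CPM in wild type and 52.3 and 51.5 CPM in knockout, with overlapping groups and a log2 fold change of 0.04 ± 0.05 (SE; 95% interval -0.08 to 0.15; edgeR, adjusted p = 0.644). On the downstream side Pla2g10os had too few counts to be tested. Rrn3, an initiation factor of RNA polymerase I, fell from 121 and 120.3 CPM to 104 and 106 CPM, by -0.20 ± 0.04 log2 units (SE; edgeR, adjusted p = 0.00224). Marf1, a regulator of meiosis in oocytes, had 138 and 139 CPM in wild type and 149 and 161 CPM in knockout, a log2 difference of 0.16 ± 0.05 (SE; edgeR, adjusted p = 0.0148). The Marf1 call was lost without wild type replicate 1, wild type replicate 2 or knockout replicate 2 (edgeR adjusted p of 0.0866, 0.0622 and 0.183) and by DESeq2 (adjusted p = 0.0587).

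**Figure D5:**
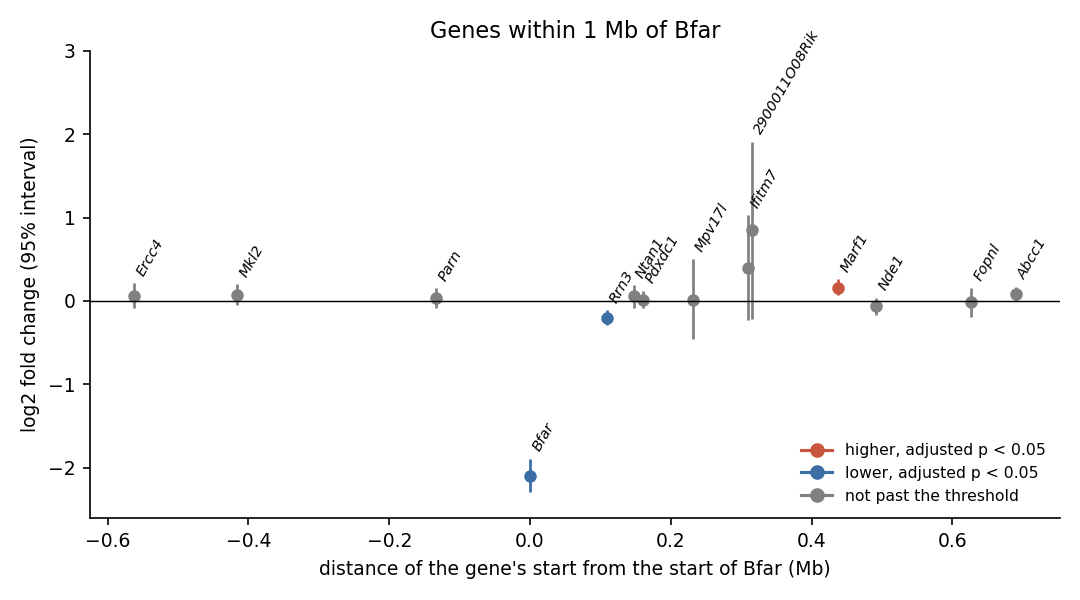
Log2 fold change (knockout against wild type, with 95% intervals from edgeR) of the tested genes within 1 Mb of Bfar, against distance from the Bfar start in Mb. Red (higher) and blue (lower) genes passed an adjusted p of 0.05: Bfar at -2.09, Rrn3 at -0.20 and Marf1 at 0.16, and the upstream neighbour Parn lies at 0.04.

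The genes whose 4-library pattern was closest to that of Bfar were found by the Euclidean distance between log2 CPM values centred on each gene's mean, over 9891 genes that averaged 5 CPM or more. With 4 libraries in 2 groups, this measure mostly ranks genes by how close the size of their fall is to that of Bfar. The closest was Atp6v0c, a subunit of the proton pump of lysosomes, at a distance of 0.282, with 208 and 210.4 CPM in wild type and 65.9 and 54.6 CPM in knockout. Inppl1, which encodes the lipid phosphatase SHIP2, followed Rnaset2b at a distance of 0.528, with 62.9 and 67.1 CPM in wild type and 21.5 and 22.5 CPM in knockout. Zfp961, a zinc finger gene, had a distance of 0.807, with 56.7 and 57.8 CPM in wild type and 25.4 and 22.8 CPM in knockout. Rnaset2b and Tmem181b-ps, at distances of 0.437 and 0.809, share 62.2% and 52.6% of their 31-base words with Rnaset2a and Tmem181a, and Atp6v0c shares 11.9% with Atp6v0c-ps2, so their assignment between copies is uncertain. Of the Inppl1 words, 17.4% also occur on the opposite strand in the annotated gene Gm10602. Since the strand setting is not given, reads of Gm10602 may be mixed into the Inppl1 row.

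The libraries held 19058009 to 19782923 expected counts, so that 3 counts correspond to 0.152 to 0.157 CPM. Of the 12677 tested genes 1728 rose and 1670 fell, and the median size of a called change was 1.2-fold; leaving out single libraries gave 1441 calls when knockout replicate 2 was dropped, 1894 for knockout replicate 1, 2139 for wild type replicate 1 and 2355 for wild type replicate 2. Of 6 T cell genes, Cd4, Cd3e and Cd3g rose, Cd5 and Il9 fell and Cd3d was not called (83.3% called, against 26.8% of all tested genes). Cd4 had 591.8 and 581 CPM in wild type and 701.9 and 671 CPM in knockout, a rise of 0.23 ± 0.04 log2 units (SE; edgeR, adjusted p = 0.0003), and the part of such shifts in the results above was not tested. The 15 markers of B, CD8, natural killer and myeloid cells summed to 23.4 to 25.9 CPM. The highest of them was Cd8b1 at 8.50 to 9.81 CPM. The macrophage marker Cd68 had 4.10 to 4.92 CPM and the B cell marker Cd79b 3.00 to 4.70 CPM. Zbtb46, a marker of dendritic cells, had 2.16 to 3.39 CPM. In each library 5 or 6 of the markers were above 1 CPM, and Lyz2, Csf1r and Ncr1 were not listed. Il9, the marker of the Th9 condition, had 536 and 505 CPM in wild type and 238 and 270 CPM in knockout.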

How the data were processed

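RNA was sequenced from 4 libraries, 2 per genotype, grouped by their labels. Per the submitters' processing notes, Bowtie and RSEM were used with GRCm38 (mm10); the sources used here give no version, annotation release or strand setting. Per the file headers, the authors deposited an expected count (RSEM's estimated count, which need not be whole), an FPKM value and a length per gene and library. A gene missing from a table was set to 0 there. Libraries of a genotype differed by more than counting noise (chi-square per degree of freedom 2.21 and 2.55), unlike 1 library deposited repeatedly; this does not show that they come from separate mice or RNA samples.

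Expected counts were rounded and all genes were tested with edgeR 4.0.16 (R 4.3.3; TMM, filterByExpr with a minimum count of 10 and total of 15, quasi-likelihood test, two-sided, Benjamini-Hochberg over 12677 genes at 0.05). The procedure was tested on simulated data. The simulated counts took their means and spread from these libraries, so they cannot speak to variation between mice. The SE is the log2 fold change divided by the square root of F. With 2 libraries per group, an exact permutation test cannot go below p = 0.33. DESeq2 1.42.0, limma 3.58.1 on log2(FPKM + 0.1) or log2(FPKM + 1), other scalings and filters, a replicate block and leaving out each library were alternatives. Intervals of 95% cover the spread between these libraries only.

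The members and gene lists were chosen with earlier results of these data known. Named genes are the members; the called ER ligases; up to 8 called ERAD partners, 4 unfolded protein response genes and 4 partners or substrates by smallest adjusted p; Sel1l, Hspa5, Tgfbr1 and Tmbim6; the adjacent and called neighbours; the 5 closest patterns; and the most abundant marker of other cells. Rnf170, Tatdn1, 3110001I22Rik, Xbp1, the motif holders, further markers of other cells and the other called list members were named after their values were seen. Exons come from GENCODE M21, and gene positions and promoters from RefSeq tables of GRCm38 (GRCm38.p6). Shared sequence is the percentage of a gene's 31-base words found in another gene. A few items are not reported here.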

Additional observations from a re-analysis of the deposited data

How the results depend on the processing

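The Bfar fall kept its direction and call under every setting tried, from -2.16 to -2.02 log2 units when 1 library was left out, at -2.09 with a replicate block and at -1.57 with 3110001I22Rik summed in (added after seeing the data). None of the 6 other ligases was called under any of the 14 alternatives. Signs turned for small differences with 1 library left out. Syvn1 ran from -0.096 to 0.028 (0.028 without wild type replicate 1, 0.004 without knockout replicate 2), Rnf139 from -0.015 (without wild type replicate 2) to 0.133, and Rnf121 from -0.052 to 0.024 (without knockout replicate 1). Tgfbr1 ran from -0.068 to 0.034 (without knockout replicate 2; 0.00 without wild type replicate 2) and 3110001I22Rik from -0.138 to 0.101 (without knockout replicate 2; 0.024 without wild type replicate 1). The cause was not tested.

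Counts of calls depended on the tool. Over all genes there were 1707 by DESeq2, 1928 without a filter on low counts, 2139 and 2171 by limma on log2(FPKM + 0.1) and log2(FPKM + 1), 259 by limma on unfiltered FPKM, and 1441 to 2355 with 1 library left out. For ERAD partners these were 6, 7, 7, 7, 0 and 4 to 7, and for chromosome 16 neighbours 1, 1, 1, 1, 0 and 1 to 2. Unfiltered FPKM left 1 other ER ligase (March6 kept its call under every setting), 0 unfolded protein response genes and 2 partners or substrates. No label says that the replicate numbers pair the libraries. The correlation of same-numbered deviations was 0.023, which rests on 1 difference per genotype and cannot show whether libraries were paired. The replicate block gave 3952 calls over all genes, against 3398, and 0 among the 6 ligases. The listed length of Bfar differed by -51.2 to 41.0 bases, of Syvn1 by -14.4 to 6.1 and of Rnf185 by 8.1 to 86.4 (knockout minus wild type) with 1 library left out. Depth limits Trim13, with 41 to 53 counts per library.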

Other observations

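The other ER-membrane ligases Rnf103, Rnf26, Tmem129, Cgrrf1, Rnf19b and Trim59 were tested and not called. Rnf26, which organises endosomes around the nucleus, had 80.5 and 81.2 CPM in wild type and 83.4 and 80.9 CPM in knockout. Rnf19b, a RING-between-RING ligase known from natural killer cells, was the most abundant of the ER ligases examined, with 468 and 461 CPM in wild type and 475 and 482 CPM in knockout. Cgrrf1 had 8.78 and 8.75 CPM in wild type and 7.36 and 8.68 CPM in knockout. Within 2 Mb of Bfar the count of called neighbours was still 2, of 18 tested genes.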
